A study of Mus musculus with 24 samples.

Results

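The transcripts of 10 genes of TGF-beta and BMP signalling were followed: the receptors Tgfbr1 and Bmpr1a, the signal carriers Smad1, Smad2, Smad3, Smad4 and Smad5, the inhibitor Smad7, and the ubiquitin ligases Smurf1 and Smurf2. They were taken as every feature whose platform symbol is one of these names, a rule that uses no measured value, although the names were listed with earlier results of these data known. Each gene had 1 transcript cluster, which gave 10 of 23332 clusters at the gene level, and together they had 158 of 229581 probe sets at the exon level. A transcript cluster sums up the probes of a whole gene, and a probe set measures a part of it, such as an exon.

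The tissues came from C57BL/6 mice aged 1 month, either Usp15-deficient or wild-type. Cerebellum and skeletal muscle of each genotype gave 4 groups with 3 Affymetrix mouse exon arrays each, 12 arrays in all, and every array was summarised at both levels. The deposited values are log2 signals, so a difference of 1 stands for a change of 2-fold. The sources used here give neither the mutant allele nor the muscle that was dissected, and nothing in them says that the 3 arrays of a group came from separate animals. Both are bulk tissues, in which fewer cells of a type and less RNA per cell cannot be told apart.

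TGF-beta and the bone morphogenetic proteins (BMPs) are secreted ligands that bind pairs of type II and type I serine/threonine kinase receptors. The type I receptor phosphorylates receptor-regulated Smads, Smad2 and Smad3 in the TGF-beta branch and Smad1 and Smad5 in the BMP branch, which join Smad4 and enter the nucleus to regulate genes. Smad7 ends the signal by bringing the ligases Smurf1 and Smurf2 to the receptors, and the deubiquitinase USP15 is known from human cells to remove ubiquitin from the type I receptors and from receptor-regulated Smads. These are actions on proteins. The arrays measure transcripts only, and the question they can answer is whether the transcripts of these USP15 targets differed without Usp15. In muscle the pathway is known for limiting growth through myostatin, and in cerebellum for its part in the growth of granule neuron precursors and in glia.

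Tgfbr1, Bmpr1a and Smad3 were the members called lower in cerebellum than in muscle in wild-type arrays under every setting tried. Those of their promoters that held a GC box, defined next, are therefore shown, from RefSeq on GRCm38.p6. Each window runs from 250 bases before to 50 bases after the start of the transcript, 5′ to 3′ on the strand of the gene. Capitals mark the GC box GGGCGG or its reverse complement CCGCCC, the letters bound by Sp1.
Tgfbr1, chr4:47352972-47353271, plus strand: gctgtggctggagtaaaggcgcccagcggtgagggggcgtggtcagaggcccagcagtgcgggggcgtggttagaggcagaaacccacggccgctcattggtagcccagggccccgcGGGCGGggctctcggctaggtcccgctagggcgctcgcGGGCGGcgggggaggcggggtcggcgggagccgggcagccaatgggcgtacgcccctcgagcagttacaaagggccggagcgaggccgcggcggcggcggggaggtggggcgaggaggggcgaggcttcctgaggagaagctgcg
Bmpr1a, chr14:34502497-34502796, minus strand: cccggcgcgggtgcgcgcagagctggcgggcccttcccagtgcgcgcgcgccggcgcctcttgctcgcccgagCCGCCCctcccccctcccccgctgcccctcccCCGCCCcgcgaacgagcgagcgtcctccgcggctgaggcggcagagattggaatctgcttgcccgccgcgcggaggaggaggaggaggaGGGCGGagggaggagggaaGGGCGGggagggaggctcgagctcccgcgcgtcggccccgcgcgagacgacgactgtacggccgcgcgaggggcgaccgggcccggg
Smad3, chr9:63757945-63758244, minus strand: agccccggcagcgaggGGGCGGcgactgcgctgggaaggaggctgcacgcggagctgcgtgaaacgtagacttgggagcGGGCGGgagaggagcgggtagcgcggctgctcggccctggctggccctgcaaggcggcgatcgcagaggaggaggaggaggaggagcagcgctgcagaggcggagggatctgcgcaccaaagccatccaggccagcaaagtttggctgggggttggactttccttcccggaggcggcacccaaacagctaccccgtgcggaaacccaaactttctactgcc
The promoter of Bmpr1a held 4 GC boxes, that of Tgfbr1 held 2 and that of Smad3 held 2. A GC box was present in 35.7% of the 32851 promoters of the table. Since a GC box was the condition for printing, its presence in the 3 windows is not a finding. Counted on both strands, none of the 3 windows held CAGAC or its reverse complement GTCTG, the core letters that Smad proteins recognise, which 49.6% of all promoters held, and none held an E-box (CANNTG, 72.3%). With GC boxes as the only matches, no motif overlapped another in these windows. The printed windows were rich in G and C, with 74.67% for Tgfbr1, 79.33% for Bmpr1a and 67.67% for Smad3. For comparison, the promoters of the ligase genes Smurf1 and Smurf2 held 2 CAGAC or GTCTG matches each, with 2 and 9 GC boxes, and that of Smad1 held no such match and 1 GC box. The Smad5 promoters held 1, 1 and 7 GC boxes, so that GC boxes were not particular to the genes printed. The search left out 1 chromosome, and no promoter of Smad2, Smad4 or Smad7 was counted. It gave 10 promoters of the other 7 members, since Smad5 has 3 starts and Tgfbr1 has a further start. The promoter at the further Tgfbr1 start held no GC box, 1 match of CAGAC or GTCTG and 1 E-box, unlike the one printed. It was left out of the print because it held no GC box. A match of letters is a description and not a binding site, and the absence of a match says only that these letters are not in this window.

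The targeted gene was examined first. The Usp15 cluster (6777684) had signals of 7.08, 6.99 and 7.19 in Usp15-deficient cerebellum, against 7.63, 7.51 and 7.66 in wild-type cerebellum. In skeletal muscle it had 6.73, 6.81 and 6.86 in Usp15-deficient arrays and 8.43, 8.92 and 8.65 in wild-type arrays. The genotypes did not overlap in either tissue. The mean difference was -0.52 in cerebellum and -1.87 in muscle, and neither passed the test over all clusters (limma adjusted p = 0.996 and 0.273). At the exon level 2 of its 23 probe sets passed in both tissues, 4427559 and 4842622. Probe set 4427559 differed by -4.01 in cerebellum and by -7.30 in muscle, and probe set 4842622 by -4.85 in cerebellum and by -7.42 in muscle. These were the only 2 probe sets of all 229581 called between genotypes in cerebellum, and likewise in muscle (0.000871% in each tissue). Over the 23 Usp15 probe sets the median difference was -0.41 in cerebellum and -1.82 in muscle.

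Array medians at the gene level were 6.09 to 6.17 in cerebellum and 5.41 to 5.51 in muscle, and arrays of a tissue correlated at 0.950 or more at both levels. All 5 granule neuron markers were called higher in cerebellum, and both measured fast fibre markers were called higher in muscle, as the tissue labels say. Slow fibre markers split the muscle arrays. The median of the 3 measured, Tnni1, Tnnc1 and Myl2, was 8.89, 9.17 and 9.08 on the Usp15-deficient arrays, against 5.29, 5.09 and 9.80 on the wild-type arrays, a median difference of 2.52. The Usp15-deficient arrays were thus closer to wild-type replicate 3 than to wild-type replicates 1 and 2. Of 2 measured oligodendrocyte genes, the myelin gene Mbp differed by 1.05 in muscle and Mog by 0.01. Mbp had 6.94, 8.73 and 7.63 on the Usp15-deficient arrays, against 6.64, 6.66 and 6.85 on the wild-type arrays. The Schwann cell gene Pmp22 differed by 0.93. None of these passed the test, and their part in the muscle results was not tested. The cerebellum arrays were not uniform either. The choroid plexus gene Ttr had 7.67, 12.25 and 11.52 on the Usp15-deficient arrays, against 8.66, 10.66 and 12.20 on the wild-type arrays. Kl, also a choroid plexus gene, ran from 4.56 to 7.39 over the cerebellum arrays. Neither was called between genotypes, and their part in the cerebellum results was not tested.

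No member differed between genotypes in either tissue by limma with Benjamini-Hochberg adjustment over all clusters. In cerebellum the 10 differences ran from -0.01 to 0.10, with 9 of 10 higher on average in Usp15-deficient arrays. Their median was 0.05, beside 0.04 over all clusters, which is also above 0. The share of all clusters with a higher mean was not computed. None of the 10 had an unadjusted p under 0.05, beside 3.54% of all clusters, and 0% of all clusters were called. In muscle the differences ran from -0.20 to 0.15, with 5 higher and 5 lower and a median of 0.00, beside 0.01 over all clusters. Again no member had an unadjusted p under 0.05 by limma, beside 3.09% of all clusters, and 0% were called. The methods' t-test also called no member after adjustment, and 1 member, Smad7 in muscle, had an unadjusted p under 0.05 by it. The share of all clusters under 0.05 by that t-test was not computed.

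The confidence intervals give the precision of each difference in cluster signal between these arrays. Over the 10 members the 95% intervals of the genotype difference lay between -0.23 and 0.36 in cerebellum, or 1.17-fold lower to 1.29-fold higher. In muscle they lay between -0.59 and 0.42, or 1.5-fold lower to 1.33-fold higher. These are separate intervals and not a joint bound, and the spread between arrays may be technical. A part of a gene can also change more than its cluster, as the called Usp15 probe sets did. The Usp15 cluster itself changed by about the median of its 23 probe sets, -0.41 in cerebellum and -1.82 in muscle. The genotype difference in cerebellum was also set against that in muscle in a fit of all 12 arrays. No member passed this test either, 0% of all clusters did, and none had an unadjusted p under 0.05, beside 2.91% of all clusters. The largest such value was 0.30 for Bmpr1a (95% interval -0.13 to 0.73).

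**Figure D1:**
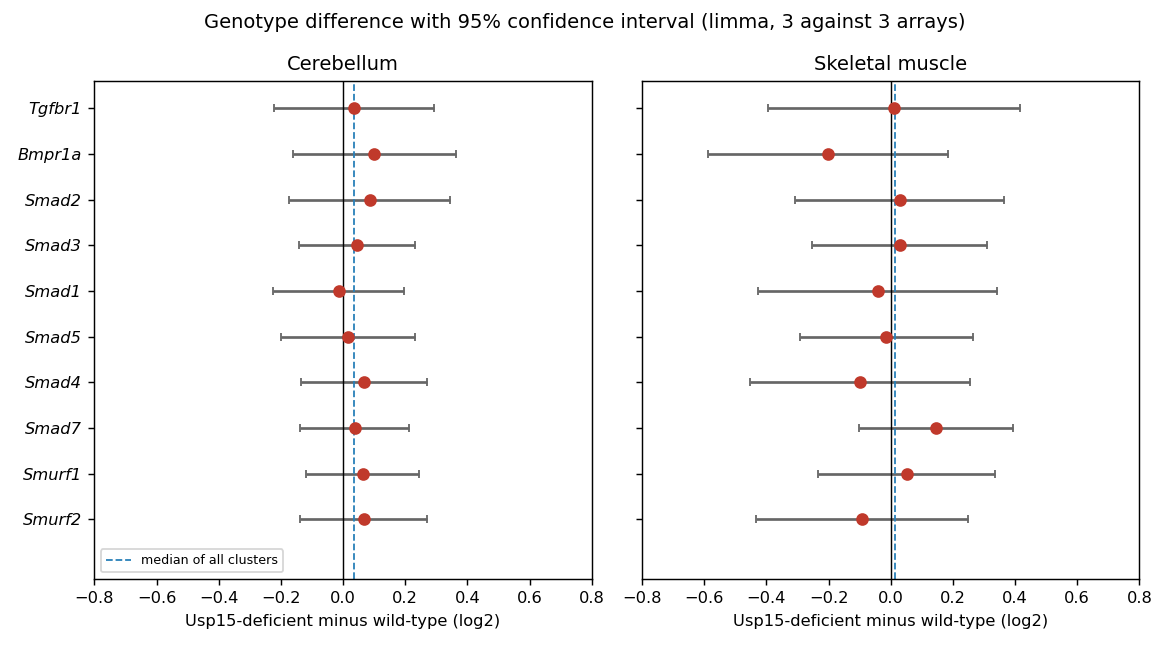
Difference of the gene-level signal, Usp15-deficient minus wild-type (log2, x axis), for each of the 10 genes in cerebellum (left) and skeletal muscle (right). Points are limma estimates from 3 against 3 arrays, bars are 95% confidence intervals and the dashed line is the median of all 23332 clusters. All 20 intervals include 0.

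Between tissues, by contrast, 5 of the 10 members differed in wild-type arrays. Tgfbr1, Bmpr1a and Smad3 were lower in cerebellum than in muscle, and Smad7 and Smad2 were higher. In Usp15-deficient arrays 6 differed, the same 5 and Smad5. A difference between these tissues was common: 70.3% of all clusters were called in wild-type arrays, 56.6% higher and 13.7% lower in cerebellum, and 70.5% in Usp15-deficient arrays. So 2 members of 10 were called higher, beside 56.6% of all clusters, and 3 of 10 lower, beside 13.7%.

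The scale of the tissue comparison matters, because the median cluster was 0.62 higher in cerebellum as deposited. The median of the 10 members was -0.02. Centring each array on its median, or quantile normalization of all arrays, brings the median cluster to -0.05 or -0.01. Lower signals of Tgfbr1, Bmpr1a and Smad3 and a higher signal of Smad7 held as calls in wild-type arrays under all 19 settings tried, which include both of these. The differences of Smad1, Smad2, Smad5 and Smurf1 changed sign under both. The number of members called became 9 after centring, 1 higher and 8 lower, and 6 after quantile normalization, 1 higher and 5 lower.

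**Figure D2:**
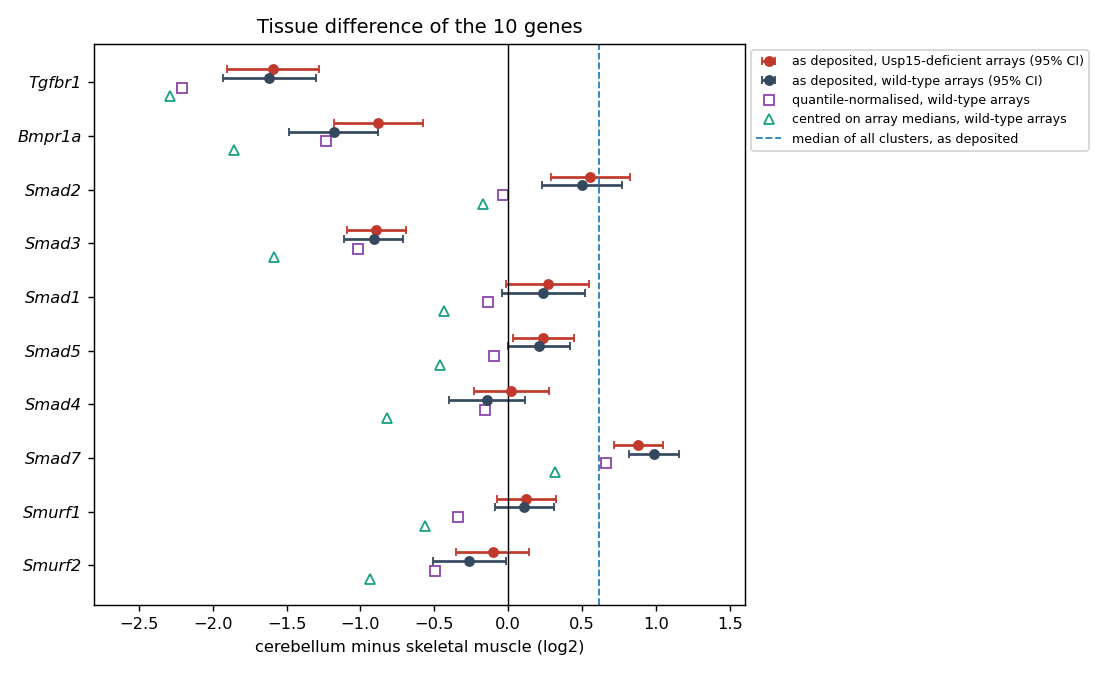
Difference of the gene-level signal, cerebellum minus skeletal muscle (log2, x axis), for each of the 10 genes. Circles with 95% confidence intervals are the deposited values in Usp15-deficient (red) and wild-type (dark) arrays, open symbols are the wild-type arrays after 2 other scalings, and the dashed line is the median of all clusters as deposited. Tgfbr1, Bmpr1a and Smad3 lie left of 0 and Smad7 lies right of 0 throughout, while Smad1, Smad2, Smad5 and Smurf1 cross 0 with the scaling.

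Tgfbr1 (cluster 6913270) encodes the type I receptor that passes on the TGF-beta signal. Its signals were 5.35, 5.49 and 5.49 in Usp15-deficient cerebellum, against 5.24, 5.51 and 5.48 in wild-type cerebellum. In muscle they were 6.85, 7.12 and 7.13 in Usp15-deficient arrays and 6.76, 7.25 and 7.07 in wild-type arrays. The genotypes overlapped in both tissues, and all 6 cerebellum arrays lay below all 6 muscle arrays. The genotype difference was 0.04 in cerebellum and 0.01 in muscle. The tissue difference was -1.62 (SE 0.14) in wild-type arrays, or 3.06-fold lower in cerebellum (limma adjusted p = 2.88e-06), and -1.59 in Usp15-deficient arrays. It was the largest tissue difference of the 10 members, and only 3.29% of all clusters had a lower or equal value.

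Bmpr1a (cluster 6823889) encodes a type I receptor for BMP ligands. Its signals were 7.76, 7.88 and 8.06 in Usp15-deficient cerebellum and 7.74, 7.76 and 7.89 in wild-type cerebellum, which overlap. In muscle they were 8.60, 8.74 and 8.99 in Usp15-deficient arrays, against 8.87, 9.20 and 8.87 in wild-type arrays, which overlap through the highest Usp15-deficient array. The muscle difference between genotypes, -0.20 (SE 0.16, 95% interval -0.59 to 0.18), was the largest of any member and did not pass the test. Leaving out an array moved it between -0.31 and -0.09. The tissue difference was -1.18 in wild-type arrays (SE 0.14, limma adjusted p = 2.43e-05), or 2.27-fold lower in cerebellum, and -0.88 in Usp15-deficient arrays.

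Smad2 and Smad3, the carriers of the TGF-beta branch, differed between tissues in opposite directions as deposited. Smad3 (cluster 6996254) had signals of 7.80, 7.70 and 7.75 in Usp15-deficient cerebellum, against 7.70, 7.74 and 7.67 in wild-type cerebellum. In muscle it had 8.61, 8.55 and 8.77 in Usp15-deficient arrays and 8.56, 8.68 and 8.61 in wild-type arrays. The genotypes overlapped and the tissues were far apart, with a tissue difference of -0.91 in wild-type arrays (SE 0.09, limma adjusted p = 7.17e-06). Smad2 (cluster 6862195) had 6.79, 6.65 and 6.79 in Usp15-deficient cerebellum, against 6.57, 6.57 and 6.83 in wild-type cerebellum. In skeletal muscle it had 6.00, 6.24 and 6.32 in Usp15-deficient arrays and 6.04, 6.15 and 6.28 in wild-type arrays. Its cerebellum arrays all lay above its muscle arrays, by 0.50 in wild-type arrays (SE 0.12, limma adjusted p = 0.00384). Relative to the median cluster this is -0.12, and the call was lost after quantile normalization, with a difference of -0.04, and after centring, with -0.17.

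The difference between Smad3 and Smad2 on the same array is free of any scaling that shifts a whole array. Smad3 minus Smad2 was 0.84 to 1.17 on the cerebellum arrays and 2.31 to 2.61 on the muscle arrays of both genotypes. The mean tissue difference of this contrast was -1.43, and the tissues did not overlap. The size of either signal alone is not comparable between probes, so that this says nothing of which transcript was the more abundant. The pair was chosen with these values known, so that its values are a description and no p is given.

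Smad1 and Smad5 carry the BMP branch, and neither was called between tissues in wild-type arrays. Smad1 (cluster 6983608) had 7.16, 7.10 and 7.28 in Usp15-deficient cerebellum, against 7.23, 7.15 and 7.21 in wild-type cerebellum, and was the only member with a lower mean in Usp15-deficient cerebellum. In muscle it had 6.85, 6.76 and 7.13 in Usp15-deficient arrays and 6.89, 6.81 and 7.17 in wild-type arrays, with replicate 3 the highest in both genotypes. Smad5 (cluster 6807345) had 7.45, 7.38 and 7.42 in Usp15-deficient cerebellum, against 7.35, 7.33 and 7.52 in wild-type cerebellum. In skeletal muscle it had 7.13, 7.15 and 7.24 in Usp15-deficient arrays and 7.08, 7.20 and 7.29 in wild-type arrays. The genotypes overlapped for both genes in both tissues. In wild-type arrays the cerebellum minus muscle difference was 0.24 for Smad1 (SE 0.13, limma adjusted p = 0.115) and 0.21 for Smad5 (SE 0.09, limma adjusted p = 0.0701). In Usp15-deficient arrays Smad5 passed, at 0.24 with an adjusted p of 0.0421. Smad1 minus Smad5 was -0.31 to -0.12 on the cerebellum arrays and -0.40 to -0.11 on the muscle arrays, which overlap.

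Smad4 (cluster 6866631), the common partner of both branches, had 8.60, 8.42 and 8.53 in Usp15-deficient cerebellum, against 8.43, 8.45 and 8.46 in wild-type cerebellum. In muscle it had 8.56, 8.63 and 8.30 in Usp15-deficient arrays and 8.60, 8.74 and 8.44 in wild-type arrays. Replicate 3 was the lowest muscle array in both genotypes. All 4 groups overlapped, and the tissue difference was -0.15 in wild-type arrays (SE 0.12, limma adjusted p = 0.277) and 0.02 in Usp15-deficient arrays. After centring on array medians it was -0.82 in wild-type arrays and passed (adjusted p = 0.000176).

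Smad7 (cluster 6862133), the inhibitory Smad that TGF-beta itself induces, had the smallest standard error of the tissue difference among the 10 members. Its signals were 7.69, 7.69 and 7.71 in Usp15-deficient cerebellum, against 7.67, 7.63 and 7.67 in wild-type cerebellum. In muscle they were 6.82, 6.80 and 6.83 in Usp15-deficient arrays and 6.69, 6.69 and 6.63 in wild-type arrays. The Usp15-deficient arrays lay above the wild-type arrays in both tissues without overlap. The differences were small, 0.04 in cerebellum (SE 0.07, 95% interval -0.14 to 0.21) and 0.15 in muscle (SE 0.10, 95% interval -0.10 to 0.39). Neither passed the test, and leaving out each array gave 0.02 to 0.04 in cerebellum and 0.13 to 0.16 in muscle. The tissue difference was 0.99 in wild-type arrays (SE 0.08, limma adjusted p = 9.95e-07) and 0.88 in Usp15-deficient arrays. It was 0.37 above the median cluster in wild-type arrays, and 0.66 and 0.32 after quantile normalization and after centring.

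Smurf1 (cluster 6942977) and Smurf2 (cluster 6791970) encode ligases that mark receptors and Smads with ubiquitin. Smurf1 had 6.95, 6.87 and 6.90 in Usp15-deficient cerebellum, against 6.82, 6.86 and 6.84 in wild-type cerebellum, with no overlap. In skeletal muscle it had 6.76, 6.82 and 6.77 in Usp15-deficient arrays and 6.68, 6.64 and 6.88 in wild-type arrays, where wild-type replicate 3 was the highest. The genotype difference was 0.06 in cerebellum (SE 0.07) and 0.05 in muscle (SE 0.12), and the tissue difference was 0.11 in wild-type arrays (SE 0.09, limma adjusted p = 0.287).

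Smurf2 had 7.58, 7.52 and 7.58 in Usp15-deficient cerebellum, against 7.44, 7.45 and 7.59 in wild-type cerebellum. In muscle it had 7.45, 7.76 and 7.79 in Usp15-deficient arrays and 7.64, 7.84 and 7.80 in wild-type arrays. The groups overlapped in both tissues. The tissue difference was -0.26 in wild-type arrays (SE 0.11), just outside the threshold (limma adjusted p = 0.0552), and -0.11 in Usp15-deficient arrays. It passed without wild-type muscle replicate 1 (-0.32) or Usp15-deficient muscle replicate 1 (-0.26), with adjusted p of 0.0270 to 0.146 over the 12 fits that leave out an array. After quantile normalization it was -0.49 and after centring -0.94, both called. Smurf2 minus Smurf1 was 0.59 to 0.75 on the cerebellum arrays and 0.69 to 1.20 on the muscle arrays.

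Smad7 in both tissues and Smurf1 in cerebellum were thus the members whose genotypes did not overlap. That is 2 of 10 members in cerebellum, beside 8.90% of all clusters, and 1 of 10 in muscle, beside 6.36%.

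**Figure D3:**
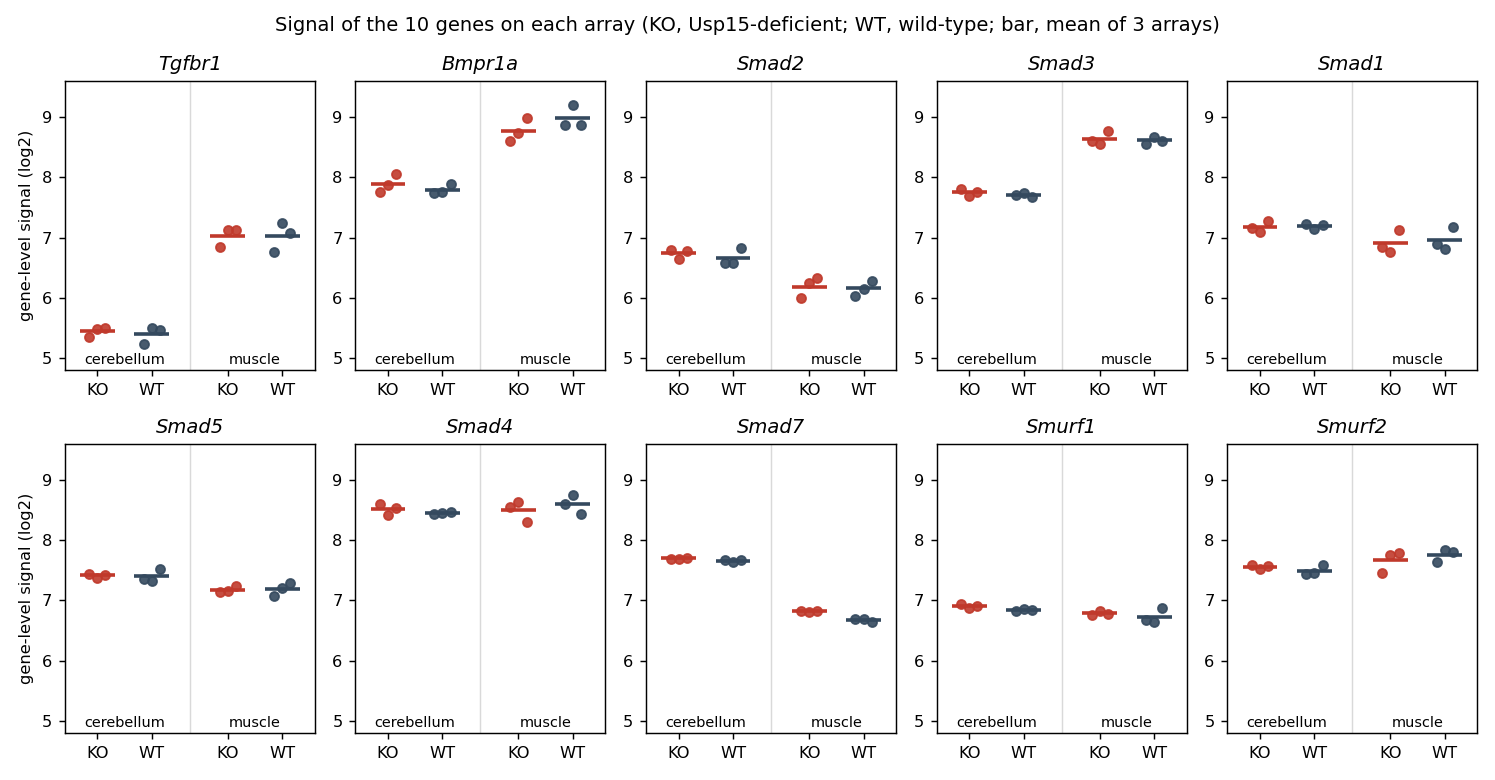
Gene-level signal (log2, y axis, same scale in each panel) of the 10 genes on every array. Red points are Usp15-deficient and dark points wild-type arrays, cerebellum left and skeletal muscle right, and bars are means of 3 arrays. The genotypes lie close together within each tissue, and the tissues do not overlap, as deposited, for Tgfbr1, Bmpr1a, Smad3, Smad2, Smad5 and Smad7.

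The probe sets were examined for changes in a part of a gene. Their number per gene ran from 11 for Smad1 and Tgfbr1 to 22 for Smurf1. Probe sets of a gene come from the same arrays and are not replicates, and the sources used here do not state where in the gene they lie. None of the 158 was called between genotypes in cerebellum, in muscle, or in the comparison of the tissues' genotype changes (0% of all probe sets in the last). In cerebellum none had an unadjusted p under 0.05 by limma, beside 3.49% of all probe sets, and 4 had by the methods' t-test. In muscle 2 had, beside 3.18%, and 4 by the methods' t-test, and in the comparison of tissues 5 had by limma, beside 3.11%. For the t-test no share over all probe sets was computed, so its counts cannot be set against limma's. The 95% intervals reached 0.47 to either side of the estimate for the median probe set in cerebellum and 0.52 in muscle. Far larger differences could go uncalled: Usp15 probe sets with differences of -2.08 in cerebellum and -2.87 in muscle were not called. A call also depends on the standard error of the probe set, which is not given for them.

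The 109 probe sets with a higher mean in Usp15-deficient cerebellum and the 49 with a lower mean gave a median of 0.08, beside 0.05 over all probe sets. In muscle 64 were higher and 94 lower, with a median of -0.05, beside 0.02 over all probe sets. Of the 16 Bmpr1a probe sets all had a lower mean in Usp15-deficient muscle, from -0.35 to -0.09, as did 19 of 20 of Smad4, while 12 of 13 of Smad7 had a higher mean. These shares repeat the gene-level direction of the same arrays. How many of all probe sets had a higher mean was not computed. In 15 of 158 the genotypes did not overlap in cerebellum, 13 of them higher in Usp15-deficient arrays, beside 8.24% of all probe sets. In muscle it was 9 of 158, 4 of them higher, beside 6.75%.

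The smallest p values between genotypes belonged to a few probe sets. In muscle, Smad7 probe set 5022382 had 4.84, 5.13 and 5.54 in Usp15-deficient arrays, against 4.70, 4.28 and 4.60 in wild-type arrays. The difference was 0.64 (SE 0.25) without overlap of the groups. Smad1 probe set 4685179 had 6.05, 5.61 and 6.37 in Usp15-deficient muscle, against 6.35, 6.79 and 7.12 in wild-type muscle. The difference was -0.74 (SE 0.29) with overlap of the groups. These were the 2 with an unadjusted p under 0.05 in muscle. The same probe set had 7.66, 7.33 and 7.51 in Usp15-deficient cerebellum, against 7.63, 6.88 and 7.17 in wild-type cerebellum. In cerebellum the smallest among higher and lower means were those of Smurf1 probe set 5038376, with a difference of 0.36 (SE 0.17), and Smad5 probe set 4521651, with a difference of -0.46 (SE 0.23).

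Between tissues 62 of the 158 probe sets were called in wild-type arrays, 21 higher and 41 lower in cerebellum. Among all probe sets 53.0% were called, 38.6% higher and 14.4% lower, and the median was 0.47, beside -0.18 for the members. In Usp15-deficient arrays 58 were called, beside 52.8%. After quantile normalization the wild-type count was 70, 8 higher and 62 lower, and after centring it was 98, 8 higher and 90 lower.

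The receptor probe sets shared their direction, though not its size. All 16 of Bmpr1a were called lower in cerebellum, from -1.57 to -0.93. Bmpr1a probe set 5446037 had 6.96, 6.72 and 6.87 in Usp15-deficient cerebellum and 7.11, 6.70 and 6.78 in wild-type cerebellum, against 8.22, 8.17 and 8.20 in Usp15-deficient muscle and 8.35, 8.48 and 8.33 in wild-type muscle. Of Tgfbr1, 8 of 11 were called lower and all 11 had a lower mean, from -2.44 to -0.21. Of Smad3, 10 of 16 were called lower, and of Smad7, 9 of 13 were called higher. Smad4 had 5 lower and 1 higher of 20, Smurf2 had 2 lower of 21, Smad2 had 3 higher of 14, and Smad5 and Smurf1 had 1 higher each. Smad1 differed from its cluster: 6 of its 11 probe sets were called higher in cerebellum although the cluster was not called.

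**Figure D4:**
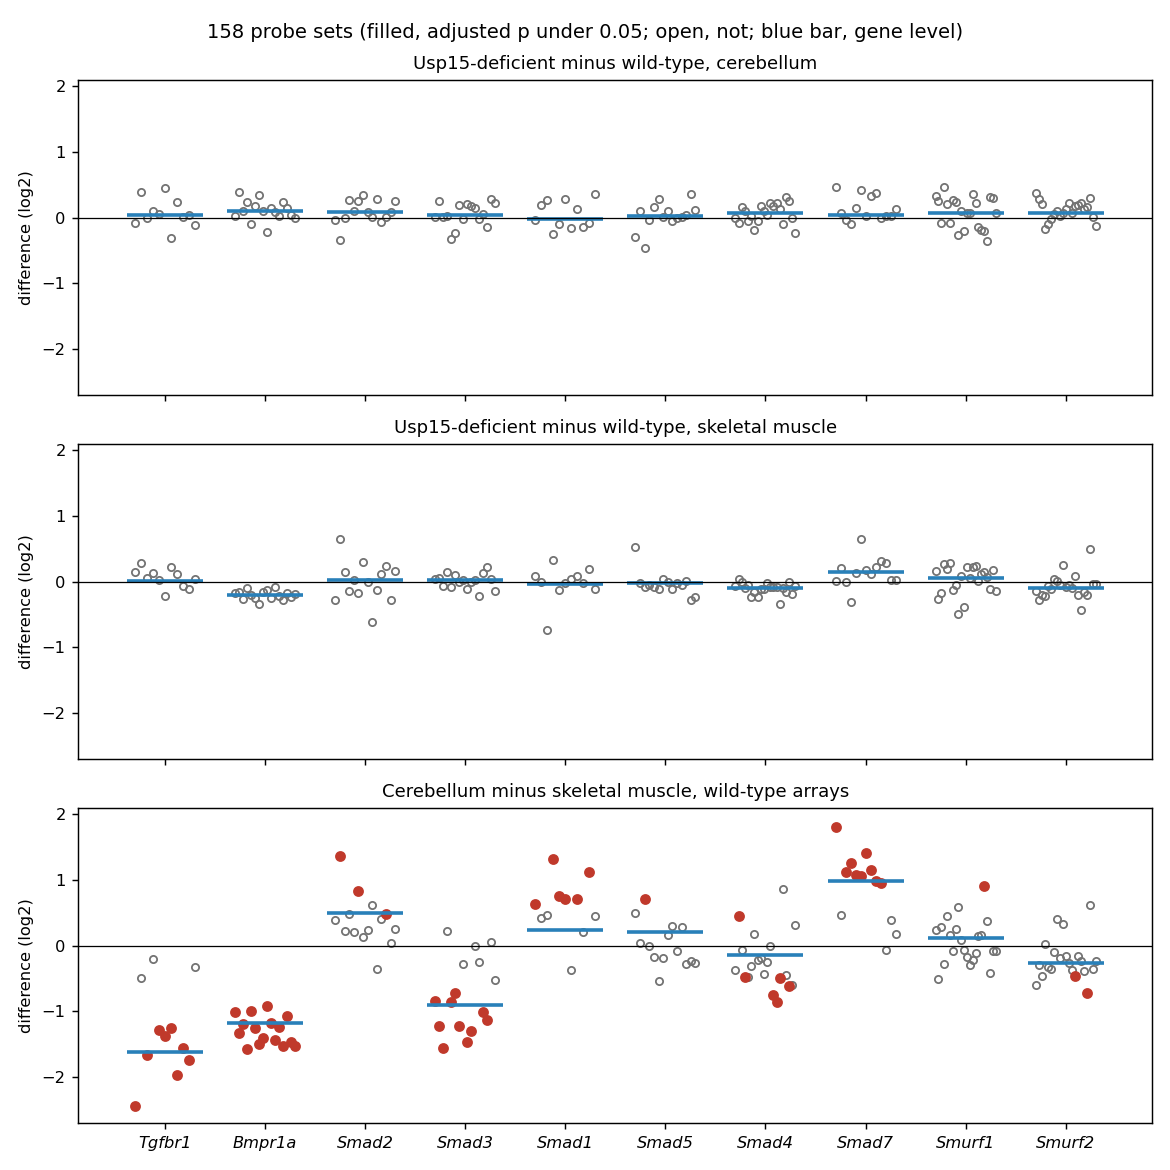
Difference of each of the 158 probe sets (log2, y axis), grouped by gene, for Usp15-deficient minus wild-type in cerebellum (top) and in skeletal muscle (middle) and for cerebellum minus skeletal muscle in wild-type arrays (bottom). Filled points passed an adjusted p of 0.05, open points did not, and blue bars are the gene-level difference. No point is filled in the genotype panels and 62 are in the tissue panel, among them all 16 of Bmpr1a.

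To ask whether parts of a gene differed from the whole, the gene-level signal of the same array was subtracted from each probe set. Between genotypes no member probe set was called, beside 0.000583% of 171647 probe sets in cerebellum and 0.00117% in muscle. By limma 1 member probe set had an unadjusted p under 0.05 in cerebellum, beside 3.55%, and 1 in muscle, beside 3.77%. By the methods' t-test it was 4 and 5, again without a share over all probe sets. The probe set in muscle was Smad1 4685179 (-0.70, SE 0.20) and that in cerebellum Smad5 4521651 (-0.47, SE 0.19).

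Between tissues 28 of 158 were called in wild-type arrays, 17 higher and 11 lower relative to their gene, beside 22.0% of the probe sets tested. A fit of the 6 wild-type arrays gave 12, blocking on the replicate gave 18 and leaving out single arrays gave 21 to 25, so that the tallies over the 28 hold for the fit of all 12 arrays only. In 18 of the 28 the relative difference ran opposite to the difference of the gene. Because the gene is subtracted, any probe set that changed less than its gene, or not in its direction, runs opposite by construction. Among the 13 that belonged to a gene called between tissues, 11 ran opposite. The rest belonged to genes not called, and for Smad1, Smad5 and Smurf1 among these the sign of the gene depended on the scaling. The share that ran opposite among all probe sets was not computed. Their mean signals did not stand apart: the median was 7.59 for the 28 and 7.53 for the other 130 probe sets. Whether such probe sets measure other isoforms, other transcripts or a flat response of the probes was not tested.

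Smad3 and Tgfbr1 held the clearest cases. Smad3 probe set 5103926 had 7.87, 7.98 and 7.89 in Usp15-deficient cerebellum and 7.72, 7.85 and 7.53 in wild-type cerebellum, against 8.97, 9.06 and 9.15 in Usp15-deficient muscle and 9.10, 9.18 and 9.24 in wild-type muscle. Smad3 probe set 5552183, in contrast, had 8.59, 8.69 and 8.85 in Usp15-deficient cerebellum and 8.61, 8.44 and 8.23 in wild-type cerebellum, against 8.46, 8.20 and 8.56 in Usp15-deficient muscle and 8.43, 8.36 and 8.31 in wild-type muscle. In wild-type arrays the tissue difference was -1.47 for 5103926 and 0.06 for 5552183, which is 0.97 above the gene-level difference (SE 0.14, limma adjusted p = 0.000669). In all, 5 Smad3 probe sets were higher and 2 lower relative to the gene.

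Tgfbr1 probe set 5579347 had 5.98, 6.25 and 5.57 in Usp15-deficient cerebellum and 5.70, 5.94 and 6.05 in wild-type cerebellum, against 7.39, 7.75 and 7.42 in Usp15-deficient muscle and 7.58, 7.71 and 7.62 in wild-type muscle. Tgfbr1 probe set 5603436 had 7.27, 7.31 and 7.23 in Usp15-deficient cerebellum and 7.32, 7.56 and 7.26 in wild-type cerebellum, against 7.62, 7.70 and 7.92 in Usp15-deficient muscle and 7.70, 7.93 and 7.50 in wild-type muscle. The tissue difference in wild-type arrays was -1.74 for 5579347 and -0.33 for 5603436, which was 1.29 above its gene (SE 0.15, limma adjusted p = 0.000242). Smad7 had 3 probe sets below its gene, led by 5351942 at -1.05 (adjusted p = 0.0048), whose own tissue difference was -0.06. Smad1 had 5 probe sets above its gene, led by 5004386 at 1.09 (adjusted p = 0.00617).

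The other genes of the pathway were given by a list of 70, of which 63 had a cluster with a single symbol. None was called between genotypes. In cerebellum none had an unadjusted p under 0.05 by limma, and the median difference of the 63 was 0.03, beside 0.04 over all clusters. Noggin (Nog), a BMP antagonist, had the smallest p, with a difference of 0.53 (SE 0.25). Its mean signal was low, 4.85 in Usp15-deficient and 4.32 in wild-type cerebellum, below the array medians. In muscle 2 of the 63 had an unadjusted p under 0.05, the feedback inhibitor Pmepa1 and the Smad corepressor Tgif1, a share near that of all clusters (3.09%, and 3.54% in cerebellum). Groups without overlap made up 6.36% of all clusters in muscle. Pmepa1 had 9.27, 9.22 and 9.08 in Usp15-deficient muscle, against 8.92, 8.80 and 8.92 in wild-type muscle, a difference of 0.31 without overlap. Tgif1 had 5.88, 6.01 and 5.80 in Usp15-deficient muscle, against 5.48, 5.61 and 5.65 in wild-type muscle, also a difference of 0.31 without overlap.

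All 15 measured target genes of the pathway had a higher mean in Usp15-deficient muscle, with a median difference of 0.20, beside 0.01 over all clusters. None was called and none had an unadjusted p under 0.05. The share of all clusters with a higher mean in muscle was not computed. Id2, a helix-loop-helix inhibitor induced by BMP signals, had 5.79, 6.10 and 6.73 in Usp15-deficient muscle, against 5.46, 5.28 and 5.87 in wild-type muscle, a difference of 0.67 with overlap. The cell cycle inhibitor Cdkn1a had 8.67, 8.01 and 7.28 in Usp15-deficient muscle, against 7.53, 6.82 and 7.02 in wild-type muscle, a difference of 0.86 with overlap. The count rested on a single array: without Usp15-deficient muscle replicate 3, 8 of 15 were higher and the median was 0.05. The slow fibre, Mbp and Pmp22 differences given above lie between the same muscle arrays. In cerebellum 9 of the 15 were higher, with a median of 0.03, and without wild-type cerebellum replicate 1 it was 5. After quantile normalization, and after centring, it was 7 in cerebellum.

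Between tissues 22 of the 63 were called higher in wild-type cerebellum than in wild-type muscle and 24 lower, beside 56.6% and 13.7% of all clusters, with a median of -0.08 beside 0.62 over all clusters. Among 10 ligands, Mstn (myostatin), the brake on muscle growth, had 4.50, 4.41 and 4.93 in wild-type cerebellum, against 8.46, 9.27 and 8.59 in wild-type muscle. The difference was -4.16. That of Tgfb3 was -1.24, that of Tgfb2 -1.10 and that of Tgfb1 -0.84, all called lower in cerebellum. Gdf10, a BMP relative known from Bergmann glia, was higher by 1.91 and Bmp7 by 1.22. Bmp7 had 6.61, 7.06 and 6.86 in Usp15-deficient cerebellum, against 6.65, 6.85 and 7.01 in wild-type cerebellum. This is the rank order of Ttr over the same arrays, and a link between them was not tested.

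Among 10 receptors and co-receptors 4 were called lower in cerebellum and 2 higher, beside 13.7% and 56.6% of all clusters. Tgfbr2, the type II partner of Tgfbr1, had 6.33, 6.22 and 6.41 in wild-type cerebellum, against 7.26, 7.18 and 7.45 in wild-type muscle, a difference of -0.98. Eng, a co-receptor of endothelial cells, had a difference of -1.26, where all 3 endothelial markers were also called lower in cerebellum, with a median of -1.66. Bmpr1b and Acvr1 were higher by 0.59 and 0.36 as deposited, and both differences were below 0 after centring, that of Bmpr1b after quantile normalization too. Bmpr2, the type II partner of Bmpr1a, differed by -0.02 (adjusted p = 0.891). Smad9, the third BMP-regulated Smad, was higher by 2.52, with 7.22, 7.25 and 7.57 in wild-type cerebellum, against 4.98, 4.50 and 4.98 in wild-type muscle.

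Extracellular antagonists divided, with Nog and Grem1 higher in cerebellum by 1.84 and 1.75, and the latency protein Ltbp4 and the myostatin antagonist Fst lower, with differences of -1.98 and -1.62. Signals of Nog and Grem1 were low in both tissues, below the array medians. Nog had 4.62, 4.53 and 3.82 in wild-type cerebellum, against 2.41, 2.84 and 2.20 in wild-type muscle. Grem1 had 4.68, 4.62 and 4.20, against 2.78, 2.82 and 2.66. Among intracellular regulators the corepressor Ski was higher by 1.19 and Trim33 by 0.68, and Pmepa1 and the phosphatase Ppm1a were lower, with differences of -0.78 and -0.59. Among ubiquitin ligases and deubiquitinases Usp11, a paralog of Usp15 whose human protein also acts on the TGF-beta type I receptor, was higher by 2.80 and the ligase Nedd4l by 1.52, while Usp9x and the paralog Usp4 were lower, with differences of -0.59 and -0.35. Of the 15 target genes 4 were called higher and 7 lower, beside 56.6% and 13.7% of all clusters. Id2 and Id4 were higher by 4.0 and 1.52, and the matrix genes Postn and Col1a1 were lower, with differences of -5.02 and -3.86, where all 3 fibroblast markers were called lower too, with a median of -4.02. These differences between tissues are for wild-type arrays as deposited, in which the median cluster was itself 0.62 higher in cerebellum. The 0.68 of Trim33 was thus near the difference of the median cluster. The differences of the antagonists, regulators, ubiquitin enzymes and targets named passed limma's test (adjusted p of 0.0103 or less).

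**Figure D5:**
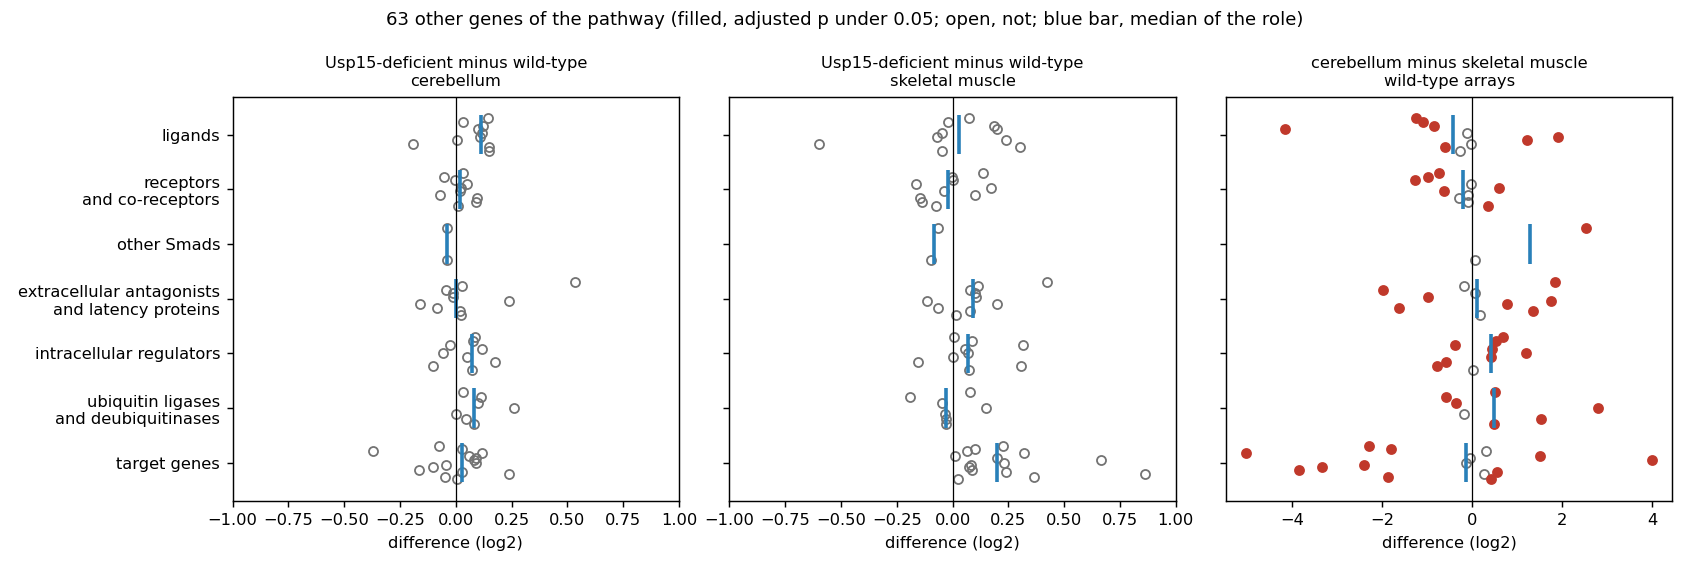
Gene-level differences of the 63 other pathway genes (log2, x axes, which differ in range between panels), by role, for Usp15-deficient minus wild-type in cerebellum (left) and in skeletal muscle (middle) and for cerebellum minus skeletal muscle in wild-type arrays (right). Filled points passed an adjusted p of 0.05, open points did not, and blue bars are the median of a role. No point is filled between genotypes, and the target genes lie right of 0 in muscle. Without Usp15-deficient muscle replicate 3, 8 of the 15 target genes did.

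The clusters most like the extreme members were found by the root mean square distance of their deviations from their own mean over the 12 arrays, among 14995 clusters with a single symbol. Nearest to Smad7 were Sec14l4 (0.06), Il17rb (0.06) and Ccdc33 (0.06), with tissue differences of 0.89, 1.01 and 0.90 in wild-type arrays. Nearest to Tgfbr1 were Mrps15 (0.08), Tarsl2 (0.08) and Limd1 (0.08), with tissue differences of -1.68, -1.80 and -1.57.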

How the data were processed

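Total RNA of cerebellum and skeletal muscle was labelled with biotin and hybridised to Affymetrix mouse exon arrays per the labels. The authors deposited log2 signals of each array, as 23332 clusters and 229581 probe sets. The sources used here do not name the background correction, normalization, software or genome build. The 2 levels of an array were never counted as separate samples. Gene names come from the platform annotation: 14996 clusters and 209279 probe sets have 1 symbol, and those with several symbols were not named.

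The values were used as deposited, without a filter. Two-sided tests were made with R 4.3.3 and limma 3.58.1 (lmFit, then eBayes). P-values were adjusted by Benjamini-Hochberg over all clusters or all probe sets, with a threshold of 0.05. The fits ran within the 6 arrays of a tissue for the genotypes and within all 12 arrays for the tissues and for the difference between genotype changes. A probe set relative to its gene is its signal less the signal of its cluster (matched by symbol, same array). The p-values measure the spread between arrays, which may be technical, and 3 arrays a group limit the precision. Scripts were tested on simulated data.

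The members, the pathway list and the marker lists were chosen with earlier results of these data known. All members are named. Up to 3 called probe sets per member were eligible to be named, or else the higher and the lower of smallest p, and in the pathway list the 2 higher and 2 lower of each role by size, or else the 3 higher and 3 lower of smallest p in a tissue. Tgfb1, Tgfb2, Cdkn1a and the tissue difference of Bmpr2 were given outside this rule, after their values were seen. Of the list, 7 genes had no cluster with a single symbol.

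The labels number the arrays of a group 1 to 3. In cerebellum at the gene level, arrays of the same number deviated together from their group means (r = 0.218, 0.203 and 0.103), and the number as a block was an alternative. In muscle and at the exon level the correlations did not all exceed 0.1. The other alternatives were a fit of all 12 or only the 6 wild-type arrays, the same contrast in Usp15-deficient arrays, a plain equal-variance test (the methods' t-test), leaving out each array, quantile normalization, centring arrays on their medians, leaving out the dimmest 25 percent, a trended and robust prior (statmod 1.5.0), and the median of a gene's probe sets as its level. A sign change was counted where a value was called or moved by more than its standard error.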

Additional observations from a re-analysis of the deposited data

How the results depend on the processing

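No genotype call of a member changed under any alternative: the counts stayed at 0 at the gene level, the exon level and relative to the gene, leaving out each array included. As deposited, no cluster at all was called between genotypes, not even that of Usp15. These counts could therefore hardly move, and they do not show an absence of change. The replicate number as a block changed none of them and gave 5 members and 56 probe sets between tissues, and 18 probe sets relative to their gene in place of 28, while the fit of the 6 wild-type arrays gave 12. Between tissues centring gave 9 members and 98 probe sets in place of 5 and 62. Leaving out an array gave 5 to 6 members, 54 to 63 probe sets, and 21 to 25 probe sets relative to their gene. The number of target genes with a higher mean, an alternative chosen after seeing the data, was 8 to 15 in muscle and 5 to 9 in cerebellum when an array was left out, and 13 in muscle after centring.

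Tissue differences in wild-type arrays changed sign after quantile normalization for Smad1 (-0.13), Smad2 (-0.0356), Smad5 (-0.10), Smurf1 (-0.34) and Bmpr1b (-0.0756), and after centring for Smad1 (-0.43), Smad2 (-0.17), Smad5 (-0.46), Smurf1 (-0.56), Bmpr1b (-0.0791), Acvr1 (-0.32) and Smad2 probe set 5198549 (-0.0327). That of Smad4 was 0.0216 in Usp15-deficient arrays. Calls that were lost without a change of sign are not listed here. Both scalings lower the cerebellum arrays against the muscle arrays by construction. Which scale is right cannot be told from signals alone, since the share of transcripts that truly differ is not known.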
